A study of Mus musculus with 16 samples.

Results

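The CpGs described here were at an intermediate methylation level in both parental cultures and left it in at least 1 clonal line. They were selected on measured levels: both parental libraries had to lie at 40 to 60%, and at least 1 of the 14 clonal lines had to lie below 30% or above 70%, where the level is the percentage of reads at a CpG that were called methylated. Of the 1203687 CpGs in the table of the series, 24280 were at 40 to 60% in both parental libraries. These are called candidate CpGs. Of the candidates, 22916 (94.4%) met the second condition and are called variable CpGs, and 1364 stayed at 30 to 70% in all 14 lines and are called stable CpGs.

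The cells were mouse embryonic fibroblasts (MEFs) from a pair of sibling C57BL/6J embryos at embryonic day 13.5, immortalised by serial passage without an added gene. The cultures MEF-1 and MEF-2 are the parental lines, and each was sequenced once as a mixed population, so a parental value has no replicate. From each parental line, 7 clonal lines were grown, each from 1 sorted cell, and a family here means 1 parental line and the 7 lines derived from it. No treatment or engineered allele separated the groups. By the study's methods MEF-1 is male and MEF-2 female, so family and sex cannot be told apart. Because the strain is inbred, the 2 parental copies of a locus cannot be told apart in these reads. Methylation was read by target capture bisulfite sequencing (tcBS-seq), in which probes enrich chosen regions and bisulfite converts unmethylated cytosines, so that methylated and unmethylated reads can be counted at each CpG.

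Methylation of a CpG is copied after DNA replication by DNMT1, which acts on the hemimethylated site with the help of UHRF1, while DNMT3A and DNMT3B can add methylation to unmarked sites. A diploid cell can carry a CpG methylated on both copies, on 1 copy or on neither, so an intermediate level in a culture can be a mixture of cells in different states or the same state of 1 methylated copy in every cell. Imprinted control regions, at which the copy from 1 parent is methylated, are the known case of the latter. CpGs flanked by A or T on both sides (WCGW) and CpGs far from other CpGs are the sequence settings known for losing methylation in dividing cells.

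The reference sequence of the longest stretches of variable CpGs is given first, because it shows where neighbouring sites were all variable, though not always in the same lines. A run was a series of consecutive measured CpGs that were all variable, with gaps of at most 100 bp. Coordinates are those of the mm10 (GRCm38) build, and all sequences are the plus strand of the RefSeq GRCm38 assembly with the variable CpGs in capitals. The longest run had 19 CpGs and lay at chr6:4748341-4748629, in an intron of Peg10, a paternally expressed gene derived from a retrotransposon. Of the 3 runs of 7 CpGs, 1 lay at chr2:174297516-174297623 in an intron of Gnas, the imprinted gene of the stimulatory G protein alpha subunit, and 1 at chr7:143296016-143296090 in an intron of Kcnq1 that overlaps the antisense transcript Kcnq1ot1. A run of 6 CpGs lay at chr7:6729242-6729323 in an intron of the paternally expressed gene Peg3.
Peg10 run: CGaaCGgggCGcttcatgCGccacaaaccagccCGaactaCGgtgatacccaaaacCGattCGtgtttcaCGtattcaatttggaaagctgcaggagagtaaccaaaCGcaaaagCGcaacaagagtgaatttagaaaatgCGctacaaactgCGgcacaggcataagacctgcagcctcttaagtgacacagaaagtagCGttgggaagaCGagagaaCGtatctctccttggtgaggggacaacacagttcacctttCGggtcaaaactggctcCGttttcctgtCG
Gnas intron run: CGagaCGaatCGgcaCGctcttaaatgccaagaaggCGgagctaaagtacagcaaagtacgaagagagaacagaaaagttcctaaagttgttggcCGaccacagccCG
Kcnq1 run: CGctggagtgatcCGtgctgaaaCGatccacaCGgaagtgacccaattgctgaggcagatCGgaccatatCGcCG
Peg3 run: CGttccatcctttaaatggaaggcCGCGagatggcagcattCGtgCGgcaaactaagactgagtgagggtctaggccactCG
The third run of 7 CpGs (chr2:174329228-174329285) and 1 of the 5 runs of 5 CpGs, the first by position (chr2:174329013-174329082), lay in untranslated exon sequence of Gnas, and their sequences are not printed. These named runs all lay in imprinted genes. They were exceptions among the variable CpGs, since 20590 (89.8%) had no variable neighbour by this definition, and only 10 runs held 5 or more CpGs.

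Single variable CpGs showed the widest differences between lines, and 3 are shown with 20 bases on each side. The first lay in an intron of Megf11 (chr9:64571542-64571583), the second in an intron of Klhl23 (chr2:69822111-69822152) and the third in an intron of Gm28363 (chr1:117726210-117726251). The central CpG in capitals is the variable one.
Megf11 site: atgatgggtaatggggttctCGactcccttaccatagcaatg
Klhl23 site: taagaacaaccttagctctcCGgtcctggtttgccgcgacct
Gm28363 site: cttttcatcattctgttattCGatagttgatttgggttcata
The Megf11 and Gm28363 sites carry the bases TCGA, a WCGW context, while the Klhl23 site reads CCGG.

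Levels of the variable CpGs were centred on the parental level but spread widely within each line. The mean level over all variable CpGs was 50.4% in the MEF-1 parental library and 50.1% in the MEF-2 parental library. It ranged from 50.1% to 52.1% over the MEF-1 lines and from 47.0% to 51.2% over the MEF-2 lines. A line kept 48.8% ± 1.93 (SD, n = 7) of the variable CpGs at 40 to 60% in the MEF-1 family and 42.1% ± 2.51 (SD, n = 7) in the MEF-2 family. Levels near 0 or 100% made up smaller shares. In MEF-1 lines 3.93% ± 2.17 of the variable CpGs were at 0 to 10% and 4.55% ± 2.33 at 90 to 100% (SD, n = 7 each), and in MEF-2 lines 7.11% ± 0.666 and 8.12% ± 2.00 (SD, n = 7 each). MEF-1 lines 1, 4 and 5 had the lowest shares at the extremes, 1.497% to 1.91% at 0 to 10% and 1.77% to 2.34% at 90 to 100%. In the other 4 MEF-1 lines these were 5.12% to 6.32% and 5.80% to 6.73%. MEF-2 line 3 stood apart from its family with 22.3% of the variable CpGs below 30%, where the other 6 MEF-2 lines had 15.4% to 17.8%. It had 16.2% above 10% and below 30%, where the others had 8.86% to 10.2%. At the extremes it had the lowest shares of its family, 6.09% at 0 to 10% and 3.88% at 90 to 100%.

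**Figure D1:**
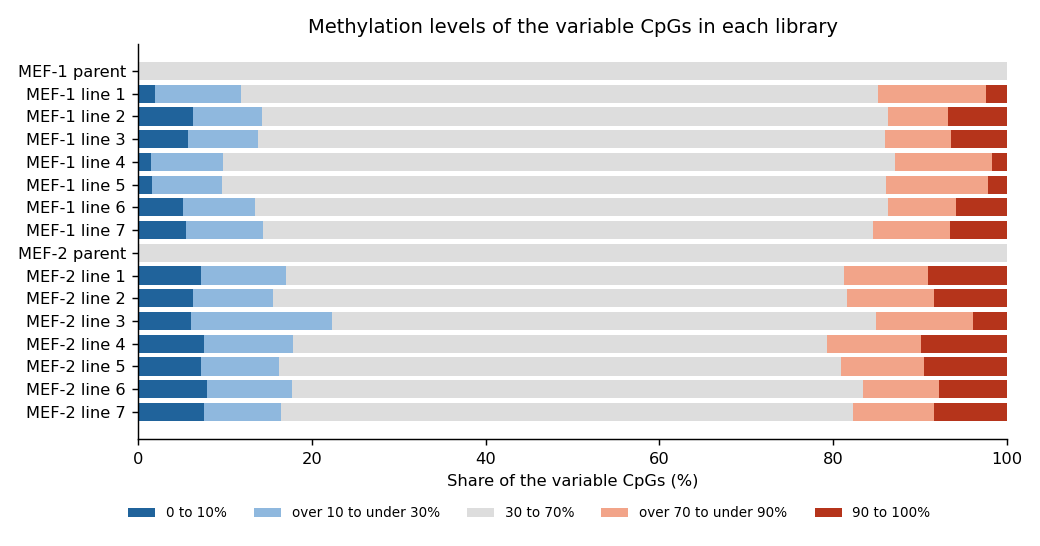
Share of the 22916 variable CpGs (horizontal axis, %) in 5 ranges of methylation level, for each library (vertical axis). Both parental libraries lie wholly at 30 to 70% because the selection required 40 to 60% there, while 61.6% to 77.4% of the CpGs of a clonal line lie at 30 to 70%.

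The number of lines that had left 30 to 70% varied from CpG to CpG. The median variable CpG was beyond the limits in 4 of the 14 lines (quartiles 2 and 6). In 2574 cases (11.2%) it was beyond them in 1 line, and in 4 cases in all 14. Lines of both families had left the range at 16283 variable CpGs (71.1%), MEF-1 lines alone at 2112 and MEF-2 lines alone at 4521. Within a family, the median SD of a variable CpG over the 7 lines was 15.5 points for the MEF-1 lines and 19.03 points for the MEF-2 lines, and the median range from lowest to highest line was 43.7 and 52.4 points. Stable CpGs, which the selection held inside 30 to 70%, had median SDs of 8.18 and 7.71 points. These values were fixed in part by the selection and are a description. The threshold cut through a continuous distribution: 426 variable CpGs had their farthest line 20 to 22 points from 50%, and 490 stable CpGs had theirs 18 to 20 points from it.

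The spread that read sampling would give was computed for comparison. The median coverage of a variable CpG was 33 reads over the clonal libraries, that of a stable CpG 48 and that of all CpGs 31. If every line had been at 50% and binomial read sampling alone had moved its level, 31.9% of the candidates at their actual coverage would have had at least 1 line beyond 30 to 70%, against the 94.4% measured. With every line at the measured level of its own parental library this share was 49.5%. For a single line the corresponding shares were 3.22% and 5.85%, against 29.3% measured. Reads were taken as independent molecules, so these shares cover counting error only. The ratio of the variance between lines of a family to that of read sampling (1 where only sampling acts) had a median of 4.73 at variable CpGs. It was 3 or more at 17272 of them (75.4%), beside 35.7% of all CpGs tested, and the selection favours this difference.

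Lines lay beyond the limits in both directions. At 12533 variable CpGs (54.7%) some lines were above 70% and others below 30%, at 6104 (26.6%) the lines beyond the limits were all above 70%, and at 4279 (18.7%) they were all below 30%. Lines on both sides were also found within a family, at 4065 variable CpGs for MEF-1 lines and at 6371 for MEF-2 lines. A line at 10% or lower beside a sister line at 90% or higher was seen at 346 variable CpGs of the MEF-1 family and at 997 of the MEF-2 family. All 7 lines of a family beyond the limits on the same side were rarer, although smaller family differences were common. The family means were within 10 points of each other at 11034 variable CpGs (48.1%) and at least 20 points apart at 5223 (22.8%). All 7 lines were above 70% at 58 variable CpGs for MEF-1 and 108 for MEF-2, and all 7 were below 30% at 84 and 124.

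Direction and frequency were tested on all 24280 candidates, since these were chosen on the parental libraries alone and the clonal levels had no part in that choice. Clonal lines of MEF-2 had left 30 to 70% at 33.6% ± 1.64 (SD, n = 7) of the candidates, from 32.0% to 36.3%, and those of MEF-1 at 24.97% ± 2.39 (SD, n = 7), from 21.4% to 28.0%. The families did not overlap, and subtracting the MEF-2 mean from the MEF-1 mean gave -8.62 points (exact two-sided permutation test of 7 against 7 lines, p = 0.000583, the smallest possible, and adjusted p = 0.00291 over 5 tests). It was -7.58 points with every clonal CpG thinned to 10 reads and -7.05 points without MEF-1 lines 1, 4 and 5 (exact p = 0.00303), the MEF-1 lines with the lowest shares at the extremes. In MEF-1 lines 13.3% ± 0.776 of the candidates were above 70% and 11.7% ± 1.93 below 30% (SD, n = 7 each). The net direction of +1.56 points ± 1.71 was positive in 6 of 7 lines and did not pass the test (exact test by sign flips, two-sided, p = 0.0625, adjusted p = 0.0781). It passed with a parental window of 45 to 55%, after thinning and without MEF-1 line 2 (1.98, 1.46 and 1.90 points, exact p = 0.0312 each), and was 0.268 points without MEF-1 lines 1, 4 and 5 and 0.518 points with limits of 20 and 80%. In MEF-2 lines 17.04% ± 1.73 were above and 16.6% ± 2.13 below, a net of +0.485 points ± 3.52 (SD, n = 7, positive in 5 of 7 lines, exact p = 0.75, adjusted p = 0.75). Without MEF-2 line 3, the line with the most CpGs below 30%, the MEF-2 net was +1.71 points (exact p = 0.0625), and without line 2, 4 or 5 it was +0.0934, +0.109 or +0.104 points. The 2 families' net directions differed by 1.08 points (exact permutation test of 7 against 7 lines, p = 0.568).

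Shares beyond the limits were also compared by chromosome coverage. Relative coverage of a chromosome, scaled to 1 in the median MEF-2 line, was below 0.9 for at least 1 chromosome in 7 lines, namely MEF-1 lines 1, 2, 3, 5, 6 and 7 and MEF-2 line 3. In all 7 of them a larger share of candidates had left 30 to 70% on the lowered chromosomes, 29.5% to 44.0%, than on their chromosomes without a shift, 21.2% to 33.9%. Coverage above 1.1 was found for 1 chromosome in each of 4 lines. In MEF-1 line 7 the share on the raised chromosome was 35.8%, against 30.7% on the lowered and 26.8% on the other chromosomes. In MEF-1 lines 1 and 5 and MEF-2 line 4 it was 23.6%, 23.5% and 34.7%, against 23.3%, 21.2% and 36.4% on chromosomes without a shift. The 36.4% of MEF-2 line 4 includes chromosome 4, where this line had left the range at 71.7% of the candidates. No direction is therefore read from its 2 shares. The part of copy number in the variable CpGs was not tested further. On chromosomes 3, 4, 6, 9 and 11, whose relative coverage was within 0.1 of 1 in every line, the difference between the families was -9.27 points (exact permutation test of 7 against 7 lines, p = 0.000583). Chromosome 4 stood apart without a coverage shift: 98.1% of its candidates were variable, against 92.4% to 95.5% on the other chromosomes, and MEF-2 line 4 had left 30 to 70% at 71.7% of them, where the other MEF-2 lines had at 32.9% to 35.3% and the MEF-1 lines at 22.9% to 28.1%. Without chromosome 4 the difference between the families was -8.14 points over all and -7.75 points over the 4 other chromosomes without a shift (exact p = 0.000583 each).

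Whether the same CpGs vary in separately derived cultures was asked by choosing on one family and measuring in the other. Of the candidates, 18395 had a MEF-1 line beyond 30 to 70% and 5885 had none. A MEF-2 line had left the range at 35.9% ± 1.44 (SD, n = 7) of the former and at 26.4% ± 2.31 (SD, n = 7) of the latter. The difference of 9.50 points ± 1.02 was positive in all 7 MEF-2 lines, from 7.54 to 10.6 (exact two-sided sign-flip test, p = 0.0156, which is the smallest possible, adjusted p = 0.0260). Chosen the other way, 20804 candidates had a MEF-2 line beyond the limits, and a MEF-1 line had left the range at 26.3% ± 2.48 of them and at 16.9% ± 2.11 of the other 3476 (SD, n = 7 each). This difference was 9.39 points ± 1.26, positive in all 7 MEF-1 lines, from 7.64 to 11.3 (exact sign-flip test, p = 0.0156, adjusted p = 0.0260). The second minus the first difference was -0.117 points (exact permutation test of 7 against 7 lines, p = 0.850). Coverage is shared between libraries at a CpG, and with the levels measured in the lines thinned to 10 reads, and the choice of CpGs unthinned, the differences were 6.14 and 5.84 points, each positive at the same exact p of 0.0156. Limits of 20 and 80% in place of 30 and 70% gave 5.06 and 4.43 points.

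**Figure D2:**
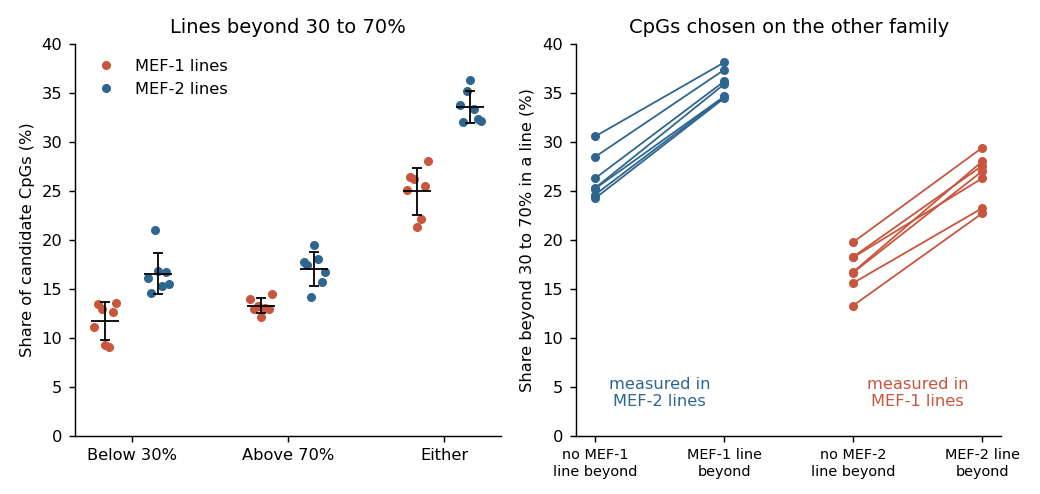
Left, share of the 24280 candidate CpGs (vertical axis, %) below 30%, above 70% or either in each clonal line (points, with mean and SD in black). Right, share beyond 30 to 70% in each line at candidates without and with a line of the other family beyond the limits, 1 connected pair of points for each line. The MEF-2 lines lie above the MEF-1 lines for either direction together, and all 14 connected pairs rise.

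Levels were more alike between lines of a family than between families. The correlation of levels between lines over the 22916 variable CpGs was 0.0234 to 0.0973 for the 49 pairs from different families. MEF-2 lines 2, 3, 4 and 7 correlated at 0.342 to 0.463 with each other, and all other pairs of MEF-2 lines were at 0.212 to 0.279. MEF-1 lines 1, 4 and 5 correlated at 0.338 to 0.371 with each other and MEF-1 lines 2, 3 and 7 at 0.423 to 0.472, while all other pairs of MEF-1 lines were at 0.174 to 0.249. These correlations run over CpGs that share libraries, coverage and neighbours and are given without a test. Lines of a family were unequally alike, and p-values over lines, which take them as independent, may be too small. A quasi-binomial model of the counts called 1966 variable CpGs (8.58%) as different between the families at an adjusted p under 0.05, beside 20.2% of all CpGs tested, and 1060 variable CpGs (4.63%) were called as higher in MEF-1, beside 11.6% of all CpGs tested. The selection used the same levels, so nothing is read from these shares.

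Levels of adjacent variable CpGs were compared only where no other measured CpG lay between them. Of such pairs 1 to 10 bp apart (432 pairs), 92.3% of the calls in which both were beyond the limits were on the same side, and the levels in a line differed by a median of 5.99 points. At 11 to 50 bp (620 pairs) these values were 78.0% and 11.1 points, at 51 to 100 bp (187 pairs) 69.3% and 15 points, and from there to 1000 bp (157 pairs) 66.5% and 16.7 points. CpGs this close share reads, so their likeness is given without a test. Counted with or without a measured CpG between, the median distance to the nearest other variable CpG was 5913 bp, and 17.2% had one within 100 bp. The likeness of pairs with a CpG of another set between them was not computed.

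Variable CpGs had fewer CpGs around them and smaller shares in promoters and genes than all other CpGs, although most lay in genes. The deposited number of CpGs within 100 bp was 5.09 on average at variable CpGs and 8.01 at all other CpGs (4.08 and 7.06 when counted in the reference without the CpG itself). The difference over chromosomes was -2.94 ± 0.234 (SD, n = 16), negative on all 16 (exact two-sided sign-flip test over chromosomes, p = 3.05e-05, which is the smallest possible, adjusted p = 4.88e-05 over 8 tests). Promoters, taken as the 1000 bp upstream of each start of a protein-coding transcript, held 11.4% of the variable CpGs and 22.5% of the others, and promoters and transcripts together held 57.9% and 71.2%. Both shares were lower on all 16 chromosomes, with differences of -11.1 ± 1.32 and -13.4 ± 2.00 points (SD, n = 16) at the same exact p. With promoters of the same length centred on the start, the promoter difference was -18.4 points. The median distance to the nearest transcript start was 8541 bp for variable CpGs and 2469 bp for the others. Of the variable CpGs 39.1% lay in introns, 7.36% in coding exons, 4.04% in untranslated exon sequence and 42.1% outside the promoters and transcripts of protein-coding genes. For all other CpGs these shares were 38.8%, 10.8%, 9.17% and 28.8%, so the intron share was near theirs.

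Stable CpGs, chosen with the same parental window, gave a second comparison. Stable CpGs were in promoters at 22.3%, and variable CpGs were lower on all 16 chromosomes, with a difference of -9.90 points ± 5.21 (SD, n = 16, exact two-sided test by sign flips, p = 3.05e-05, adjusted p = 4.88e-05). The difference was -7.57 points among CpGs of like coverage (exact p = 9.16e-05), -9.97 points without the listed imprinted genes, and -4.24 points when the variable CpGs were chosen on the MEF-1 lines alone (exact p = 0.000122). The density was 5.09 at variable and 5.21 at stable CpGs. The difference over chromosomes was -0.0433 ± 0.605 (SD, n = 16, exact p = 0.779), and its direction turned with the setting, from -0.984 among CpGs of like coverage (exact p = 0.00381) to +0.253 without imprinted genes (exact p = 0.0388). The genic share was 57.9% against 63.6%, a difference of -4.14 points ± 9.26 that did not pass (SD, n = 16, exact p = 0.0943), and it was -1.38 points with members chosen on MEF-1 lines, -1.97 points with limits of 20 and 80% and -2.24 points without imprinted genes.

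The bases beside the CpG also differed from the rest of the table. A or T on both sides was found at 26.2% of variable CpGs and at 20.04% of all other CpGs, a difference of 6.42 points ± 1.54 that was positive on all 16 chromosomes (SD, n = 16, exact two-sided test by sign flips, p = 3.05e-05, adjusted p = 4.88e-05). By context on both strands, ACGA (its complement TCGT included) made up 12.8% of variable and 9.70% of other CpGs, ACGT 7.99% and 6.14%, and TCGA 5.42% and 4.204%. With A or T on 1 side, ACGG was also higher, at 14.6% and 12.6%, and CCGA at 14.3% and 12.7%. ACGC at 10.9% and 11.4% and GCGA at 9.43% and 10.4% were lower. CCGC, with its complement GCGG, was lower too with 12.0% and 16.5%, as were CCGG with 7.68% and 8.74% and GCGC with 4.93% and 7.64%. Stable CpGs were WCGW at 21.99%, a difference of 3.89 points ± 7.17 from the variable ones (SD, n = 16, positive on 13 of 16 chromosomes, exact p = 0.0471, adjusted p = 0.0628), which was -0.170 points with a parental window of 45 to 55% (exact p = 0.961), 6.58 points with at least 20 reads (exact p = 0.00174) and 6.12 points among CpGs of like coverage (exact p = 0.00717). No other CpG lay within 35 bp at 34.9% of variable, 37.5% of stable and 22.8% of all other CpGs. Soft-masked repeats held 5.73%, 4.33% and 4.41%.

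**Figure D3:**
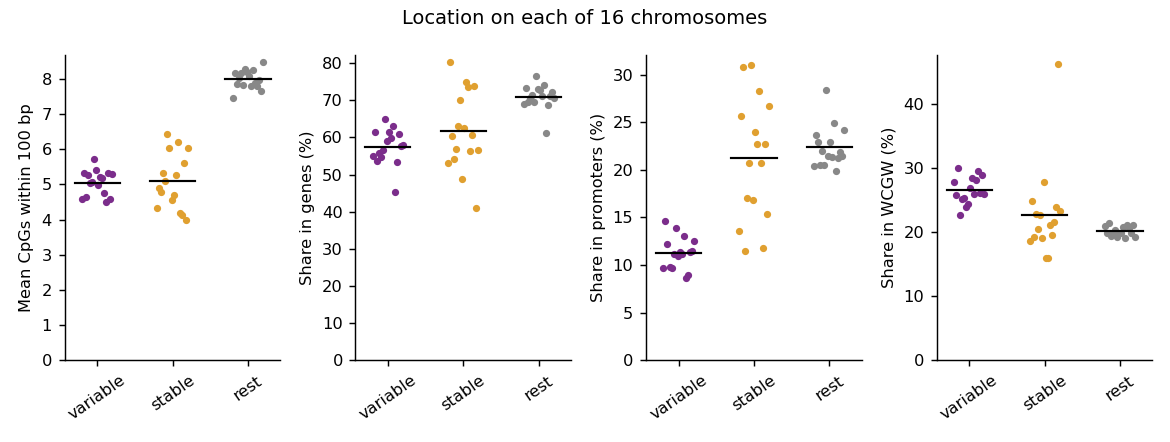
Mean number of CpGs within 100 bp and shares (%) in genes, promoters and WCGW contexts for variable, stable and all other CpGs, with 1 point for each of 16 chromosomes and the mean as a line. Variable CpGs lie below all other CpGs in the first 3 panels and above them in the fourth, and below stable CpGs in promoters on every chromosome.

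The scores that the authors deposited differed between these sets. The fidelity score, the share of the 14 lines at 0 to 10, 40 to 60 or 90 to 100%, averaged 0.573 at variable, 0.735 at stable and 0.838 at all other CpGs. The score for neighbour similarity, which counts the lines whose nearest CpG was within 10 points as a share of all 14, averaged 0.270, 0.363 and 0.666. Both are made from the levels that the selection used and are given as a description.

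Variable CpGs were spread over many genes. Of 15442 protein-coding genes with a measured CpG, 6682 held at least 1 variable CpG in the promoter or transcripts, of which 3547 held 1 and 74 held 10 or more. Per chromosome, 16.6 (chromosome 3) to 20.1 (chromosome 14) of 1000 measured CpGs were variable. Among the genes with the most variable CpGs were 5 on the list of imprinted genes. Others were not on it. Gm20388, a model of chr8:119910841-124345722 that spans other genes, held 140 variable CpGs among 7597 measured. Fgfr2, a fibroblast growth factor receptor annotated in GENCODE M21 over chr7:130162451-133123350, a model that also spans other genes, held 44 of 2675. Scn8a, a voltage-gated sodium channel, held 19 of 302, and Camta1, a calmodulin-binding transcription activator, 18 of 810. Such counts also depend on how many CpGs of a gene were measured. Per 1000 measured CpGs, Gm20388 and Fgfr2 held fewer variable CpGs than the 19.04 found over all CpGs, and Scn8a and Camta1 held more. In these 4 genes the median variable CpG was beyond the limits in 4 to 5 lines.

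The imprinted genes held theirs among fewer measured CpGs. Gnas held 88 variable CpGs among 294 measured and 94 candidates, Kcnq1, a potassium channel gene, 27 of 157 and 34, Peg10 25 of 73 and 30, H13 22 of 220 and 26, and Mcts2, a retrogene inside H13 that shares its CpGs, 19 of 81 and 22. The median variable CpG of these genes was beyond the limits in 2 or 2.5 lines. The promoters with the most variable CpGs were those of Gnas with 48, Inpp5f with 13, Mcts2 with 10, and Pde4b, Peg3 and Usp29 with 7 each, where Peg3 and Usp29 start next to each other on opposite strands and share the same 7 CpGs. Pde4b, a cyclic AMP phosphodiesterase, was the only one of these 6 not on the list of imprinted genes, and its promoter CpGs were beyond the limits in a median of 6 lines. The 7 variable promoter CpGs of Pde4b, of 45 measured in its alternative promoters, had a mean level that ranged from 39.0% to 67.6% over the MEF-1 lines and from 38.2% to 64.6% over the MEF-2 lines, around 45.3% and 50.6% in the parents. Nrn1, which encodes neuritin and is named here after its values were seen, had 5 variable promoter CpGs with a mean of 6.25% to 29.4% over the MEF-1 lines and 43.8% to 65.9% over the MEF-2 lines, from parental means of 46.2% and 47.6%.

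By list, 412 of 3147 CpGs of the listed imprinted genes were candidates and 303 variable, or 73.5% of the candidates against 94.4% of all candidates. Per 1000 measured CpGs, 96.3 were variable in the imprinted genes and 19.04 over the whole table, and candidates made up 13.1% and 2.02% of the measured CpGs. A MEF-1 line had left 30 to 70% at 7.52% to 14.6% of the imprinted candidates (median 12.6%) and a MEF-2 line at 8.25% to 25.2% (median 11.4%). Over all candidates no line was below 21.4%. The homeobox and lineage transcription factor list had 129 variable CpGs among 139 candidates (92.8%), led by Lhx2 and Tbx1 with 8 each and Gata2 with 6. The neuronal and synaptic list had 178 of 187 (95.2%), led by Ank3, Dlgap1 and Gabbr2 with 13 each. Its median variable CpG was beyond the limits in 4 lines, that of the transcription factors in 5, and that of the imprinted genes in 2, beside 4 over all variable CpGs. The fibroblast and matrix list held 15 variable CpGs of 16 candidates (Col23a1 3), the DNA methylation machinery 17 of 18 (Dnmt3l 3) and the germline genes 8 of 9 (Piwil1 and Rec8 2 each).

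In the Peg10 run, levels of the 19 CpGs were closer together in some lines than in others. Its mean level was 54.0% in the MEF-1 parental library and 53.6% in the MEF-2 parental library. Over MEF-1 lines it had a lowest value of 39.0%, a median of 49.4% and a highest of 74.7%, and over MEF-2 lines 34.6%, 47.4% and 59.5%. MEF-1 line 4 was the high one, with 15 of the 19 CpGs above 70% and every CpG between 65.2% and 84.4%. MEF-2 line 1 held opposite extremes inside the run: the CpGs at 107, 115 and 141 bp from the first one were at 100.0% of 19 or 20 reads, and those at 200, 211 and 219 bp at 10.0% to 18.2% of 20 to 22 reads. Chromosome 6 had a relative coverage within 0.1 of 1 in every library.

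**Figure D4:**
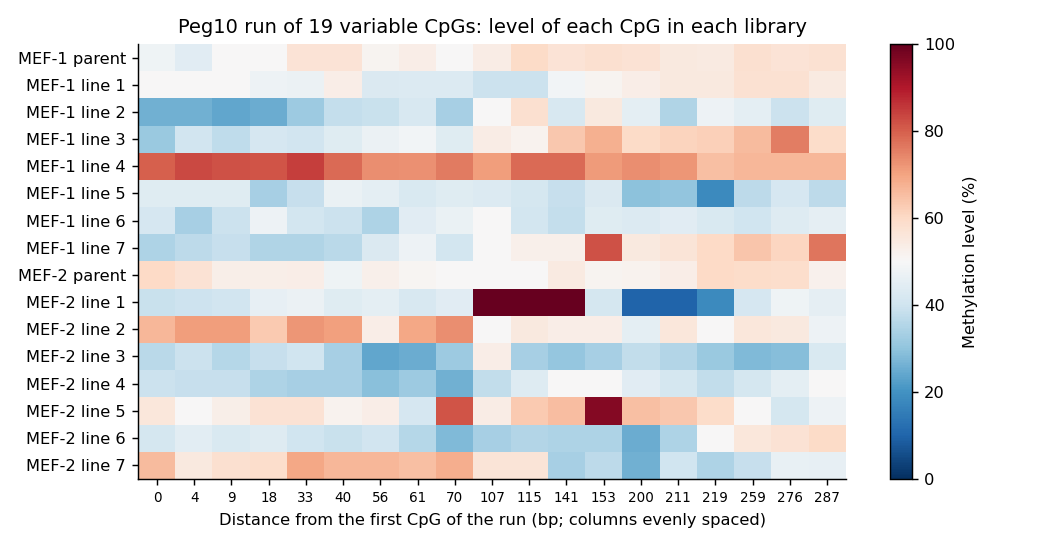
Methylation level (colour, %) of the 19 CpGs of the Peg10 run (columns, labelled by distance in bp from the first) in each library (rows). MEF-1 line 4 is above 65% throughout, and MEF-2 line 1 has 3 CpGs at 100% beside 3 at 10.0% to 18.2%.

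In the Gnas, Kcnq1 and Peg3 runs, single lines had all or most CpGs beyond the limits. The Gnas intron run had 48.4% and 47.7% in the parents, 12.8%, 44.6% and 50.7% as lowest, median and highest MEF-1 line, and 28.2%, 44.2% and 70.6% in MEF-2. MEF-1 line 6 was the lowest, with 89 reads over the 7 CpGs (95% Wilson interval 7.88% to 22.1%). MEF-2 line 3 was the highest, with 75 reads (59.6% to 79.8%). CpGs this close share reads, so these intervals may be too narrow. In the untranslated Gnas run of 7 CpGs the same lines were at the ends, with 22.8% in MEF-1 line 6 and 72.9% in MEF-2 line 3, and in the run of 5 CpGs MEF-2 line 3 was again the highest, with 69.6%. MEF-2 line 3 had a relative coverage of 0.784 on chromosome 2, where the other 6 MEF-2 lines had 0.992 to 1.00, and it was also the highest MEF-2 line at the variable CpGs of Mcts2, with a mean of 74.3%. The part of this coverage in the level was not tested. The Kcnq1 run had 41.0% to 62.8% in MEF-1 lines and 25.9% to 50.4% in MEF-2 lines. The Peg3 run had 43.3% to 61.7% in MEF-1 lines and 18.8% to 60.2% in MEF-2 lines, with MEF-2 lines 3 and 4 below 30%. Chromosome 7, which carries both, had a relative coverage of 0.816 to 0.899 in MEF-1 lines 1, 3, 6 and 7, whose mean levels in these 2 runs lay at 49.9% to 62.8%. In MEF-1 lines 2, 4 and 5 they lay at 41.0% to 50.5%. Whether coverage had a part in these levels was not tested.

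Among CpGs covered by 20 or more reads in every library, single sites were ranked by their SD over lines and by the difference between families, so that their values are a description. The Megf11 CpG, in a gene for a protein with EGF-like domains, had parental levels of 44.2% and 55.6% (95% Wilson intervals 31.6% to 57.7% and 44.7% to 65.9%). MEF-1 lines 1 to 7 were at 22.2%, 96.97%, 93.5%, 0.0%, 3.03%, 90.1% and 100.0%, so that 4 lines were above 70%, 3 below 30% and none between. In a coding exon of Ache, the acetylcholinesterase gene, MEF-1 lines were at 3.45% to 100.0% with a median of 61.9%, and in an intron of Bmper, which encodes a BMP-binding protein, at 7.69% to 100.0% with a median of 31.3%. MEF-2 lines at these 3 CpGs ranged from 38.1% to 92.3%, from 41.2% to 93.5% and from 16.9% to 96.3%. MEF-1 lines 1, 4 and 5 were the low ones at Megf11 and were each at 100.0% at Ache. MEF-1 lines 2, 3 and 7 had 3.45% to 17.9% at Ache and 97.1% to 100.0% at Bmper. At Bmper lines 1, 4 and 5 had 8.24% to 31.3% and line 6 had 7.69%. Lines within each of these groups were most alike over all variable CpGs, so the 7 lines may not be independent here.

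The CpG with the largest SD over MEF-2 lines lay in an intron of Klhl23, a kelch-like gene, 187 bp after a transcript start. MEF-2 lines 1 to 7 were at 8.57%, 100.0%, 92.6%, 93.0%, 10.8%, 7.69% and 96.7%, while the MEF-1 lines stayed at 43.5% to 63.6%. Parental levels were 59.7% in MEF-1 and 40.5% in MEF-2. A CpG upstream of Zfp90, a zinc finger gene, lay outside protein-coding genes but within the annotated gene Gm26786. It ranged from 6.67% to 100.0% in MEF-2 lines and from 32.5% to 100.0% in MEF-1 lines. A CpG in an intron of Rab20, a small GTPase gene, ranged from 0.0% to 100.0% in MEF-2 lines and from 30.4% to 83.3% in MEF-1 lines. Both the Zfp90 and the Rab20 site lay on chromosome 8, where MEF-1 line 1, at 100.0% and 30.4%, had a relative coverage of 0.864. At each of these sites the MEF-2 lines divided into 3 or 4 lines above 70% and 3 below 30%, with 1 line between at the Zfp90 site. The lines above 70% were lines 2, 3, 4 and 7 at both Klhl23 and Rab20, and lines 5, 6 and 7 at the Zfp90 site. MEF-2 lines 2, 3, 4 and 7 were also those most alike over all variable CpGs, so the lines may not be independent here.

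At the CpGs with the largest family differences, both parental levels lay at 40 to 60% by selection. In Gm28363 the parents were at 59.4% and 54.8%, all 7 MEF-1 lines at 71.9% to 96.2% and all 7 MEF-2 lines at 0.0% to 9.68%. It was the only variable CpG at which all MEF-1 lines were above 70% and all MEF-2 lines below 30%, and none had the reverse. MEF-1 lines 5 and 7, at 96.2% and 85.2% there, had a relative coverage of 0.827 and 0.882 on its chromosome 1. The CpG upstream of Mroh4, on chromosome 15, had 42.6% to 87.4% in MEF-1 lines and 0.0% to 42.0% in MEF-2 lines, which meet within counting error, from parents at 55.3% and 47.2%. The lowest MEF-1 line there, line 5, had a relative coverage of 1.28 on chromosome 15. Other single sites also lay on chromosomes with shifted coverage in some lines, and its part was not tested. In the other direction, a coding-exon CpG of Spg7, which encodes a mitochondrial protease and lies inside the Gm20388 model, had 0.943% to 48.5% in MEF-1 lines and 92.4% to 96.9% in MEF-2 lines, from parents at 57.7% and 50.7% over 142 and 140 reads. Interval widths of single values at these 9 sites ran from 4.23 to 37.6 points, so that ranks among close lines are not resolved.

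**Figure D5:**
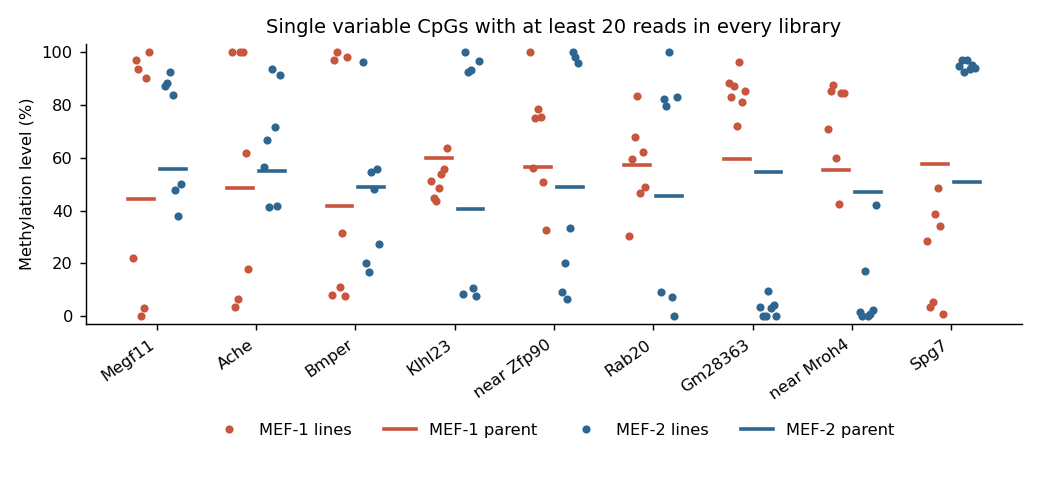
Methylation level (vertical axis, %) of 9 single variable CpGs in every clonal line (points) and parental library (short bars), MEF-1 in red and MEF-2 in blue. From Megf11 to Bmper the MEF-1 lines lie at both extremes, from Klhl23 to Rab20 the MEF-2 lines do, and at the last 3 the lines of the families do not overlap, though they meet within counting error near Mroh4.

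Total calls (1 call is 1 read over 1 CpG) ran from 59243669 to 90633091 per library, with a median coverage of 26 to 39 reads. The labelled cell type was checked at promoters, which was possible for 4 of 12 fibroblast markers. Vim, Pdgfra and Col1a1 were at 1.64%, 13.3% and 15.6% in the median library and Thy1 at 94.1%. The 3 blood markers lay at 67.9% to 78.7%, Pecam1 of endothelium at 76.3%, the 4 epithelial markers at 16.1% to 97.8%, and Nanog and Pou5f1 of pluripotent cells at 68.7% and 46.6%. Promoter methylation alone does not show which of these genes were expressed.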

How the data were processed

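Target capture bisulfite libraries of 2 parental and 14 clonal lines were analysed, and groups and line numbers were taken from the labels. According to its methods, the study trimmed reads with Trim Galore (0.6.0 in the submitters' processing notes, which also list R 3.6.1), aligned them to mm10 with Bismark, and left out reads of low mapping quality and biased read ends. Removal of PCR duplicates is not stated. The deposited values are counts of methylated and unmethylated reads per CpG, with both strands combined by the authors and no normalization. The deposited fidelity and neighbour similarity scores are shares of the 14 lines, from 0 to 1, computed by the authors, and the deposited CpG number is a count within 100 bp. The table of the series keeps CpGs covered by 10 or more reads in each of 16 libraries, on 16 chromosomes (aneuploid and sex chromosomes were removed by the authors, and chromosomes 12, 18, 19, X and Y are not analysed here), and its counts equalled those of the library files at all 1203687 CpGs. Its 2 other columns of values per sample, coverage and methylated percentage, were not used. Of its CpGs 113 did not lie at a CG of GRCm38.

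The members and gene lists were chosen with earlier results of these data known. Levels were computed from the counts in Python 3.11.15 with numpy 2.4.6, scipy 1.17.1 and statsmodels 0.14.6 (intervals). Lines were the replicates of values per line, and chromosomes those of location, because neighbouring CpGs are not independent. These tests replaced tests over CpGs. Two-sided exact permutation and sign-flip tests were used, with Benjamini-Hochberg adjustment over 5 line tests and 8 location tests. The quasi-binomial model (F-test, dispersion not below 1) was fitted and adjusted over all CpGs, and the procedures were tested on simulated data. Genes came from GENCODE M21 and sequences from RefSeq GRCm38. Named genes were the 10 protein-coding genes and 6 promoters with the most variable CpGs, the 6 longest runs, and among CpGs with 20 reads in every library the 3 with the largest SD in each family and the 2 with the largest family difference in each direction, and 2 of these items are not reported here. Wilson intervals cover counting error only, since reads are not independent molecules. Alternatives changed the coverage minimum, parental window, clonal limits, read depth, chromosomes, lines, annotation and choice of members, and leaving out imprinted genes, chromosome 4 or the 4 most alike MEF-2 lines was added after seeing the data.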

Additional observations from a re-analysis of the deposited data

Results flagged for a closer look

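Among 42 groups of 7 lines that were checked for a line far from the others, 4 were marked. Chance marks about 1 in 20 groups that were not chosen on their values. The groups included the named runs and single sites, which were chosen on their values, so the count cannot be set against that rate. Of the 4 marked groups, 2 are related measures of the same line. MEF-2 line 3 had 21.04% of the candidate CpGs below 30%, away from the other 6 MEF-2 lines, and a net direction of -6.87 points. It had a relative coverage of 0.784 on chromosome 2 and 0.779 on chromosome 14, and its part in these values was not tested. MEF-1 line 4 stood above its family in the Peg10 run, with a mean level of 74.7%. MEF-2 line 7 stood above its family at the CpG upstream of Mroh4, with 42.0% where the other 6 MEF-2 lines were at 0.0% to 17.1%.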

How the results depend on the processing

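The share of candidates beyond 30 to 70% kept its direction and its side of the threshold under all alternatives that were run. Leaving out 1 line at a time gave differences from -9.13 to -8.02 points. Same-numbered lines as a replicate block gave -8.62 points (exact test by sign flips, p = 0.0156). Deviations of same-numbered lines correlated at -0.00554 to 0.0110, so the numbers do not pair the lines. The MEF-1 net direction passed the threshold with a parental window of 45 to 55% (1.98 points), after thinning to 10 reads (1.46 points) and without MEF-1 line 2 (1.90 points, exact p = 0.0312 each), and leaving out 1 line gave 1.15 to 1.90 points. It was 0.875 points with at least 20 reads (exact p = 0.203), 0.518 points with limits of 20 and 80% (exact p = 0.141) and 0.268 points without MEF-1 lines 1, 4 and 5 (exact p = 0.5). Without MEF-1 lines 1, 4 and 5, the difference chosen on MEF-2 lines was 10.1 points (exact p = 0.125, the smallest that 4 lines allow). Without MEF-2 lines 2, 3, 4 and 7, left out after seeing that they were most alike, the difference chosen on MEF-1 lines was 9.96 points (exact p = 0.25, the smallest that 3 lines allow) and the difference between the families -8.19 points (exact p = 0.00833). With 5 chromosomes without a coverage shift no p below 0.0625 is possible, and the differences from all other CpGs were -2.98 in density, -13.3 points in genic share, -10.8 points in promoter share and 6.16 points in WCGW share. Against stable CpGs they were -11.5 points in promoters and 5.81 points in WCGW share. The density difference from stable CpGs was 0.178 with members chosen on MEF-1 lines (exact p = 0.0185), 0.0190 with CpGs counted in the reference (exact p = 0.915), 0.253 without imprinted genes (exact p = 0.0388) and -0.984 among CpGs of like coverage (exact p = 0.00381), so that opposite directions each passed under some setting. The WCGW difference from stable CpGs was -0.170 points with the window of 45 to 55% (exact p = 0.961) and 3.47 points without imprinted genes (exact p = 0.0750). It was 6.58 points with at least 20 reads (exact p = 0.00174), 6.12 points among CpGs of like coverage (exact p = 0.00717), 4.85 points with limits of 20 and 80% (exact p = 0.00421), and 2.48 and 4.49 points with members chosen on MEF-1 lines (exact p = 0.0233) or MEF-2 lines (exact p = 0.000427). The cause of these changes was not tested. Variable CpGs called between families numbered 1966 in the main fit (8.58%, beside 20.2% of all CpGs tested). They numbered 1009 with at least 20 reads, where fewer CpGs were tested, 1227 without MEF-1 lines 1, 4 and 5, and 1597 to 1914 without 1 line. The share of all CpGs called was not kept for these other settings, so nothing is read from the counts. Counting error limits single levels at 20 to 40 reads.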
